A study of Mus musculus with 2 samples.

Results

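The genes described here are 9 genes best known from mast cells and basophils, read in mouse Extensively Self Renewing Erythroblasts (ESREs), a culture of red cell precursors held at an immature, dividing stage. They were taken by gene symbol from the authors' deposited table of 25791 gene rows, and all 9 had a row. They are Ms4a2, Fcer1a, Fcer1g, Hdc, Il1rl1, Srgn, Cpa3, Mcpt1 and Mcpt2. One group was matured for 1 day and is called maturation here, and the other was kept in expansion. Both have a C57/bl6 background, and the treatment label gives only the words maturation and expansion. The series title speaks of transgenic beta-Yac mice as the source of ESREs, while the labels give no allele for either group. The series text speaks of biological duplicates, but the table holds 1 FPKM value (fragments scaled by transcript length and by the library's mapped fragments) per gene and group. No value below therefore has a replicate check, an SD, an n or a test, and the 9 genes were chosen for these values, so they are given as a description.

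Mast cells and basophils carry the high-affinity IgE receptor FcεRI, and crosslinking of the IgE bound to it makes them release stored granules. The receptor has an IgE-binding alpha chain (Fcer1a), a signal-amplifying beta chain (Ms4a2) and a pair of signalling gamma chains (Fcer1g). The granules hold histamine, made from histidine by the enzyme encoded by Hdc, and proteases such as carboxypeptidase A (Cpa3) and the chymase family (Mcpt1, Mcpt2), all packed on the proteoglycan serglycin (Srgn). Il1rl1 encodes ST2, the receptor for the alarm cytokine IL-33. Erythroid, megakaryocytic and mast cell precursors share several regulators, among them GATA factors and the receptor KIT.

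After 1 day of maturation, the genes for 2 of the 3 IgE receptor chains, histamine synthesis, the IL-33 receptor and serglycin stood at lower FPKM, while the 2 chymase genes stood at higher FPKM. Fcer1g and Cpa3 were near 0 in both groups. With a log2 ratio of FPKM + 1 (maturation over expansion) of -1 or less counted as at least 2-fold lower and of 1 or more as at least 2-fold higher, 5 of the 9 genes were lower, 2 higher and 2 within 2-fold. Among the 9263 rows that reached 1 FPKM in either group, 6.70% were at least 2-fold lower and 3.13% at least 2-fold higher. Among all 25791 rows these shares were 2.41% and 1.12%. The genes were chosen on this same contrast, so nothing is read from the difference in shares. The median log2 ratio of the 9263 rows was -0.25, against which each ratio below can be read.

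Of the 9 genes, 7 reached an FPKM of 1. Il1rl1 and Srgn did so in both groups, Ms4a2, Fcer1a and Hdc in expansion only, and Mcpt1 and Mcpt2 in maturation only, so these last 5 genes passed through the group in which they were high. In whole-culture RNA, fewer cells of a type and less RNA per cell cannot be told apart.

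**Figure D1:**
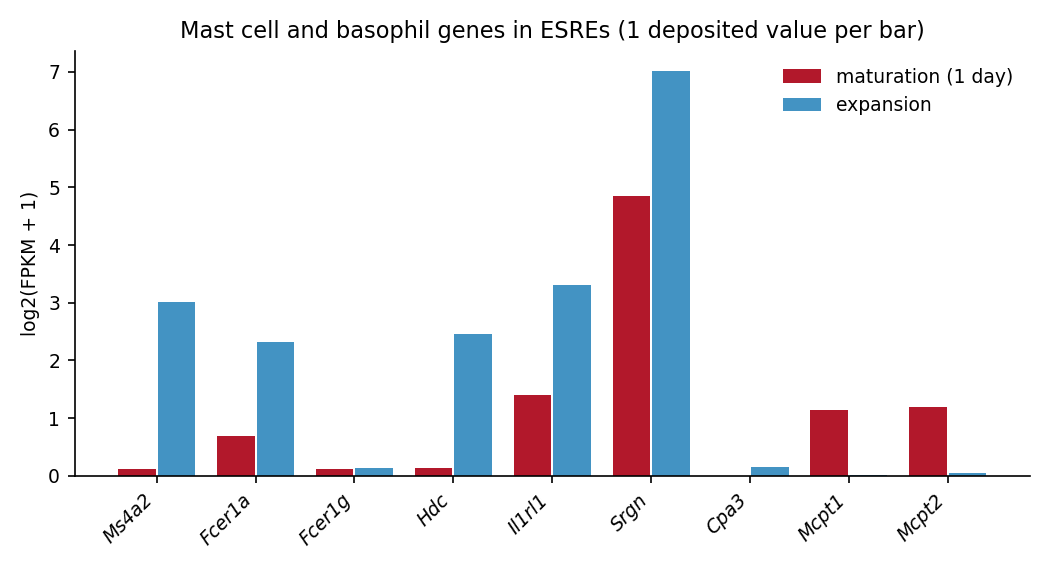
Levels of the 9 genes as log2(FPKM + 1), with maturation left of expansion for each gene and 1 deposited value per bar, so no error bars can be drawn. Srgn has the tallest bars in both groups (27.8 FPKM in maturation and 128 FPKM in expansion), and Mcpt1 and Mcpt2 are the genes with the taller bar in maturation.

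Among the chains of the IgE receptor, Ms4a2, the beta chain (chr19:11691683-11698133 on mm9, the whole gene row), was at 0.0903 FPKM in maturation and 7.07 FPKM in expansion. Its log2 ratio was -2.89, the lowest of the 9 genes, and its FPKM was 78.3-fold higher in expansion. Ms4a2 was thus close to 0 in maturation. Fcer1a, the alpha chain (chr1:175151402-175157360), was at 0.605 FPKM in maturation and 4.01 FPKM in expansion, a log2 ratio of -1.64. Fcer1g, the gamma chain that several other Fc receptors also use (chr1:173159703-173164480), was at 0.0801 FPKM in maturation and 0.104 FPKM in expansion, a log2 ratio of -0.03. The 3 chains of this receptor were therefore not at like levels in either group. Within maturation the Ms4a2 level was 0.149 times that of Fcer1a and 1.13 times that of Fcer1g, whereas within expansion it was 1.76 times that of Fcer1a and 68.2 times that of Fcer1g. FPKM is scaled by length, so these ratios compare levels per length.

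The upstream sequences of the 2 receptor genes that stood lower are shown because each holds the GATA motif, the letters bound by the GATA factors of both erythroid and mast cells. They are the 250 bases before the RefSeq start site on GRCm38.p6, 5′ to 3′ on the gene's minus strand, at chr19:11623720-11623969 for Ms4a2 and at chr1:173227230-173227479 for Fcer1a. Capitals mark the letters AGATAA on either strand, and likewise AGATAG, and also TGATAA, or else TGATAG.
Ms4a2: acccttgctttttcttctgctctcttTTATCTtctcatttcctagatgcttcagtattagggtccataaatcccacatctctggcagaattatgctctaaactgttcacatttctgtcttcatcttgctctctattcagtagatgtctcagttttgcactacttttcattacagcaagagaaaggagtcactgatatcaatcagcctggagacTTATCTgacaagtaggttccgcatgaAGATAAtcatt
Fcer1a: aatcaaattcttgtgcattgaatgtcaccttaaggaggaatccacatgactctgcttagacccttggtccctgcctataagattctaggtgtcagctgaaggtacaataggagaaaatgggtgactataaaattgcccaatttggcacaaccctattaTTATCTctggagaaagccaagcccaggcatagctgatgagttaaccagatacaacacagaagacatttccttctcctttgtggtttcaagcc
The Ms4a2 window held 3 matches, starting 224, 37 and 11 bases before the start site, and the Fcer1a window held 1, at 92 bases. Of 32851 RefSeq windows of the same length, 26.5% held at least 1 match and 1.35% held 3 or more. The Fcer1g window held none. A match describes these letters and is not shown to be a bound site.

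Hdc, the enzyme of histamine synthesis (chr2:126419404-126444401 on mm9), was at 0.0945 FPKM in maturation and 4.47 FPKM in expansion. Its log2 ratio was -2.32 and its FPKM was 47.3-fold higher in expansion. Over all rows of the deposited data, 16 were under 0.1 FPKM in maturation and at 4 FPKM or more in expansion, of which 8 were not microRNA, snoRNA or other small RNA rows. Hdc and Ms4a2 were among these 8, with Egr1, an immediate early transcription factor, at 0.0804 FPKM in maturation and 12.5 FPKM in expansion. The cut-offs of 0.1 and 4 FPKM were not planned and lie close to the Hdc values, so nothing is read from these counts. Slc18a2, which encodes the vesicular transporter that loads histamine into granules, was at 0.184 FPKM in maturation and 0.291 FPKM in expansion, and Hnmt, a histamine-degrading enzyme, was listed at 0 in maturation and at 0.00285 FPKM in expansion. Hdc was thus the 1 gene of histamine handling above 1 FPKM, in expansion only. Of the 9 genes listed for amine storage and breakdown, Tph1 alone reached 1 FPKM, at 62.0 in maturation and 95.0 in expansion, a log2 ratio of -0.61. Tph1 encodes an enzyme of serotonin synthesis.

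Il1rl1, the IL-33 receptor (chr1:40496494-40522260 on mm9), was at 1.64 FPKM in maturation and 8.92 FPKM in expansion, a log2 ratio of -1.91 and a 5.43-fold higher FPKM in expansion. It was the second highest of the 9 genes in both groups. Il1rap, the partner chain that ST2 needs to signal, was at 0.0869 FPKM in maturation and 0.184 FPKM in expansion. Within maturation the Il1rl1 level was 18.9 times that of Il1rap, and within expansion 48.4 times. Il33, the ligand, was listed at 0 in maturation and at 0.00183 FPKM in expansion. Of the 9 genes of the IL-33 pathway list, 6 reached 1 FPKM and none was beyond 2-fold by the log2 ratio of FPKM + 1, with a median of -0.23. This rests on the pseudocount of 1. By FPKM alone Irak2 was 2.04-fold higher in maturation and Irak4 2.24-fold higher in expansion. With a pseudocount of 0.1, 1 gene of the list was at least 2-fold lower and none at least 2-fold higher. Among the 6 genes, Myd88, the adaptor below the receptor, was at 6.96 FPKM in maturation and 9.62 FPKM in expansion, and Irak2, a kinase recruited by that adaptor, at 2.99 FPKM in maturation and 1.46 FPKM in expansion. Of the IL-1 receptor family, Sigirr, an inhibitory member placed on the pathway list, was at 0.528 FPKM in maturation and 0.838 FPKM in expansion. The 7 genes listed as further members were all under 0.1 FPKM in both groups, including the neighbours Il1rl2 and Il18r1.

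The upstream windows of Il1rl1 and Hdc are shown for the same reason, with the same capitals. RefSeq gives 2 start sites for Il1rl1 (plus strand), whose windows lie at chr1:40429320-40429569 and chr1:40439379-40439628 on GRCm38.p6, and the Hdc window (minus strand) lies at chr2:126618679-126618928.
Il1rl1, first start: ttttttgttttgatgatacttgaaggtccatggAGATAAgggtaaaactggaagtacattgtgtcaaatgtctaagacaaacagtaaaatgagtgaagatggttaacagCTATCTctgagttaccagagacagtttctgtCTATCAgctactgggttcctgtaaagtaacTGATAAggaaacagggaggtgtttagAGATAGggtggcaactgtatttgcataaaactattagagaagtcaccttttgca
Il1rl1, second start: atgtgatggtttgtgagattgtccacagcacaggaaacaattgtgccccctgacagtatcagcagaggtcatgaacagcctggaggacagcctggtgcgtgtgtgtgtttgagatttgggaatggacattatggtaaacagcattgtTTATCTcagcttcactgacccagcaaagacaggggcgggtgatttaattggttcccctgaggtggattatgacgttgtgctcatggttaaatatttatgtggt
Hdc: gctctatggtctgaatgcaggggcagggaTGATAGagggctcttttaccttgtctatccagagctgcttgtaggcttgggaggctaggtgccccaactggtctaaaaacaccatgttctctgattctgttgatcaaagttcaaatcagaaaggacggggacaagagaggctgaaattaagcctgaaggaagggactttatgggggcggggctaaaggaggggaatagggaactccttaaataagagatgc
The window of the first Il1rl1 start held 5 matches to the GATA letters, a number reached by 14 of the 32851 windows (0.043%). The second Il1rl1 window and the Hdc window held 1 each, and 26.5% of all windows held at least 1. The single Il1rl1 row gives 1 value for the gene in each group. Its span on mm9 was not compared with the 2 starts, so which start was used in these cells was not tested. The window with 5 matches may therefore lie before a start that was not in use. In all, RefSeq windows were found for 8 of the 9 genes, and 6 of these held the motif in at least 1 window: Ms4a2, Fcer1a, Hdc, Il1rl1, Cpa3 and Mcpt1. The last 2 differ from the others in their values, Cpa3 being near 0 in both groups and Mcpt1 higher in maturation. An E-box searched as CACGTG or CACATG on either strand was found in 1 of the 8 genes (Fcer1a) and in 17.6% of all windows. An ETS motif searched as AGGAAG on either strand was found in 3 of the 8 (Fcer1g, Hdc and Mcpt1) and in 29.5% of all windows. Srgn held none of the 3 motifs in either of its 2 windows, which says only that these letters are not in them.

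Srgn, the core protein of the granule proteoglycan (chr10:61957176-61970503 on mm9), was at 27.8 FPKM in maturation and 128 FPKM in expansion. Its log2 ratio was -2.17 and its FPKM was 4.62-fold higher in expansion. Srgn was the highest of the 9 genes in both groups: 95.9% of all rows were lower in maturation and 98.3% in expansion. It made up most of the summed FPKM of the 9 genes, which was 32.8 in maturation and 153 in expansion, and without Srgn 5.01 in maturation and 24.7 in expansion. Serglycin is also made by other blood cells, platelets and megakaryocytes included. Genes that build the sugar chains of proteoglycans stood in both directions: of 16 listed, 10 reached 1 FPKM, 3 stood at least 2-fold lower and none higher by that much, the median being -0.36. The 3 lower ones were Ndst2, the N-sulfating enzyme that mast cells need for heparin, at 2.68 FPKM in maturation and 15.4 FPKM in expansion, Chst15, a chondroitin sulfotransferase, at 0.575 FPKM in maturation and 4.10 FPKM in expansion, and B4galt7, which adds the first galactose of the linker, at 0.658 FPKM in maturation and 2.41 FPKM in expansion. Hs6st1, a heparan 6-O-sulfotransferase, stood the other way at 8.31 FPKM in maturation and 3.89 FPKM in expansion, a log2 ratio of 0.93, or 1.18 once ratios were centred on the median of all expressed rows. The same centring brought B4galt7 to -0.79, within 2-fold.

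**Figure D2:**
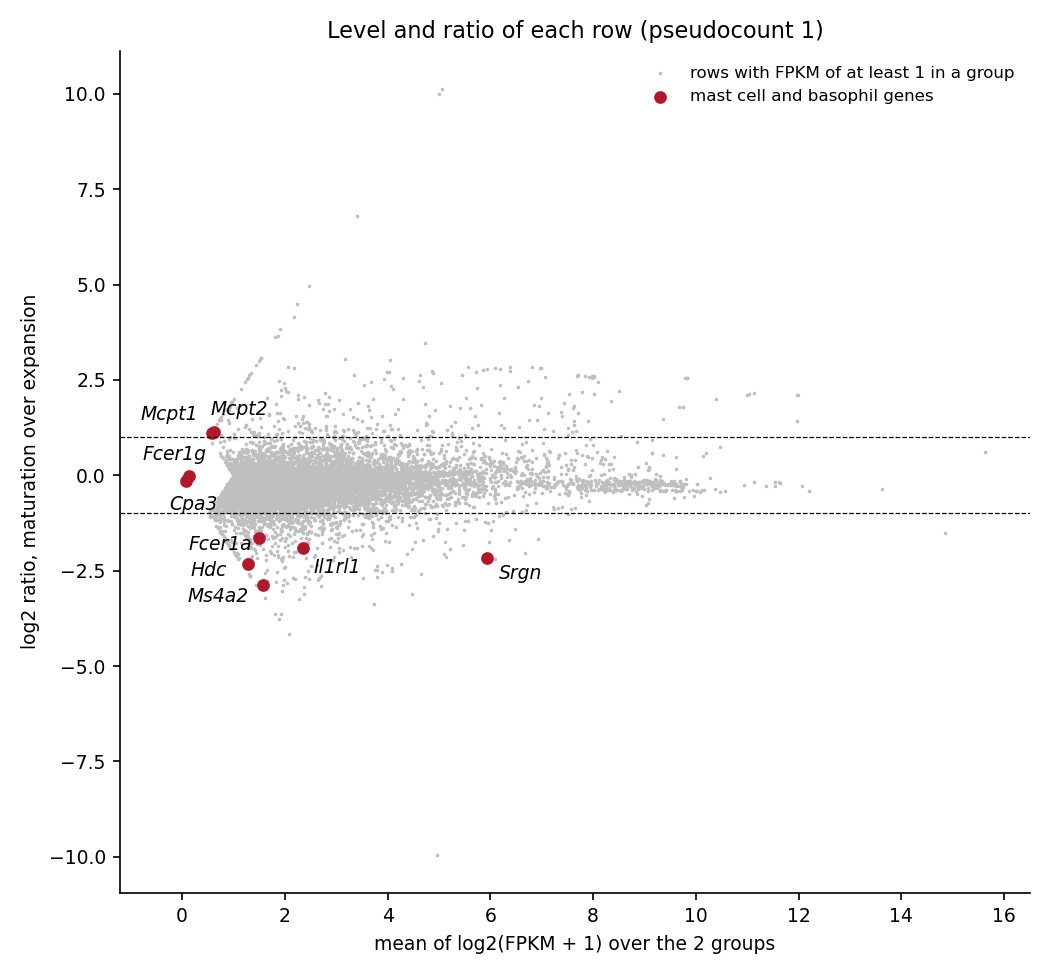
Log2 ratio of maturation over expansion (vertical axis) against the mean of log2(FPKM + 1) over the 2 groups (horizontal axis), with the 9263 rows of at least 1 FPKM in a group in grey, the 9 genes in red and dashed lines at ratios of 1 and -1. Srgn lies far to the right of the other genes at a ratio of -2.17, Ms4a2, Hdc, Fcer1a and Il1rl1 lie lower left, and Mcpt1 and Mcpt2 lie just above the upper line.

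Among the granule proteases, Cpa3, the mast cell carboxypeptidase (chr3:20115515-20142080 on mm9), was listed at 0 FPKM in maturation and at 0.107 FPKM in expansion. No fold is given against a value of 0, which can be a failed estimate. Mcpt1, a chymase of mucosal mast cells (chr14:56636801-56639228), was at 1.20 FPKM in maturation and 0.0139 FPKM in expansion, a log2 ratio of 1.11. Mcpt2, a neighbouring chymase gene (chr14:56660960-56663471), was at 1.30 FPKM in maturation and 0.0406 FPKM in expansion, a log2 ratio of 1.14. Both were at low levels even in maturation, where 70.3% of all rows were lower than Mcpt1 and 71.2% lower than Mcpt2. There were 41 rows at 1 FPKM or more in maturation and under 0.1 FPKM in expansion, 14 of them not small RNA rows. Mcpt1 and Mcpt2 were among these 14. So was Slc4a1, the red cell anion exchanger, at 18.0 FPKM in maturation and 0.0744 FPKM in expansion. This pair of cut-offs was likewise not planned and lies close to the Mcpt1 and Mcpt2 values in maturation, so nothing is read from these counts.

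The expansion values of Mcpt1 and Mcpt2 can be set beside the smallest values of rows that are nearly silent. Across 121 olfactory receptor rows with a single GENCODE transcript, the smallest product of FPKM and transcript length in bases above 0 was 4.70 in both groups. The 10th percentile of these products was 7.33 in maturation and 5.44 in expansion, so 1 fragment need not be worth the same in every row. Taken as a unit, called a step here, the smallest product gives a rough scale, and with the longest GENCODE transcript as length the Mcpt1 value equals 260 steps in maturation and 3.0 in expansion, and the Mcpt2 value 290 steps in maturation and 9.2 in expansion. For this reason no fold is given for them. By the same measure Ms4a2 equals 46 steps in maturation and 3600 in expansion, and Hdc 91 in maturation and 4300 in expansion. Fcer1g equals 12 steps in maturation and 15 in expansion, and Cpa3 0 in maturation and 33 in expansion. These are not fragment counts, since the groups may each combine several libraries and no source used here gives the authors' transcript models.

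Mcpt1 and Mcpt2 belong to a cluster of related serine proteases on chromosome 14, whose start of the coding sequence shows how alike the genes are. The first 90 coding bases of GENCODE M21 transcripts (GRCm38, 5′ to 3′ in the direction of the gene) are printed for Mcpt2, and for 4 further genes with capitals at bases that are not the same as in Mcpt2. They lie at chr14:56042154-56042735 (plus strand, an intron included) for Mcpt2, and likewise with an intron at chr14:56017999-56018595 (plus) for Mcpt1, chr14:56061690-56062274 (minus) for Mcpt4, chr14:56028680-56029268 (minus) for Mcpt9 and chr14:56261200-56262149 (minus) for Gzmb.
Mcpt2: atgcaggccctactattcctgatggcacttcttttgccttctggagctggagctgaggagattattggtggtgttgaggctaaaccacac
Mcpt1: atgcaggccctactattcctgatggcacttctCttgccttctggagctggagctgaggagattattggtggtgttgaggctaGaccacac
Mcpt4: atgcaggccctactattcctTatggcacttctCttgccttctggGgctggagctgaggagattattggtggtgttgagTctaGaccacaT
Mcpt9: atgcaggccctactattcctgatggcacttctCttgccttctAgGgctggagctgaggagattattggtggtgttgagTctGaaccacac
Gzmb: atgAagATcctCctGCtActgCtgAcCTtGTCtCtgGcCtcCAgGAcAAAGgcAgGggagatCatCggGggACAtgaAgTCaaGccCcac
Within these 90 bases Mcpt1 had 2 differences from Mcpt2, Mcpt9 had 5, Mcpt4 had 6 and Gzmb, a granzyme gene of the same cluster, had 38. Over the whole coding sequence Mcpt1 and Mcpt2 were 81.2% identical, Mcpt1 and Mcpt4 86.7%, and Cma2 and Mcpt9 98.1%. The fragments of such genes can be divided among them by the authors' software. Of the 36-base windows of the transcript, 4.3% for Mcpt1 and 3.4% for Mcpt2 were found in a transcript of another gene, and 0% for both with windows of 50 bases. Only exact matches were searched, so windows that differ at a few bases are not counted. How the fragments of these rows were assigned was not tested. The rows of Cma2 and Mcpt9 are less separate, with 46.5% and 18.8% of 50-base windows shared. No source used here gives the length of the reads.

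The values along this cluster split by position, a comparison chosen after the values were seen. All 7 rows on the chymase side (Cma1, Mcpt-ps1, Cma2, Mcpt1, Mcpt9, Mcpt2 and Mcpt4) had a higher FPKM in maturation, and all 7 granzyme rows (Gzme, Gzmd, Gzmg, Gzmn, Gzmf, Gzmc and Gzmb) had a lower one, although the log2 ratio of Gzmf changed sign once ratios were centred. The chymase side summed to 4.70 FPKM in maturation and 0.333 FPKM in expansion, with single rows from 0.223 to 1.30 in maturation and from 0.00971 to 0.192 in expansion. The granzyme side summed to 0.0296 FPKM in maturation and 3.84 FPKM in expansion, where rows ran from 0.145 to 2.05. Gm5801, a row that lies between Cma2 and Mcpt1 and was put on neither side, was at 13.1 FPKM in maturation and 13.9 FPKM in expansion and does not follow the split. Besides Mcpt1 and Mcpt2, the highest row of the chymase side was Mcpt4, a chymase of connective tissue mast cells, at 0.715 FPKM in maturation and 0.00971 FPKM in expansion, and that of the granzyme side was Gzmb, the cytotoxic protease granzyme B, at 0.0169 FPKM in maturation and 2.05 FPKM in expansion. Cma1, the mast cell chymase known as mMCP-5, was at 0.288 FPKM in maturation and 0.192 FPKM in expansion. Between the sides, Mcpt8, a basophil protease, and Ctsg, cathepsin G of neutrophils and mast cells, were listed at 0 in both groups. Cma2 and Mcpt9 are near copies that can share fragments, also with Mcpt4, Mcpt-ps1 and Mcpt1, so their rows are not independent readings. Gzmc shared 12.0% of its 36-base windows with other genes, among them Gzme, Gzmg, Gzmd and Gzmf. Apart from Gzmb and Gzmc the granzyme transcripts were not searched for shared windows. The rows of each side are therefore not taken as 7 independent readings. Of the 14 rows on the sides, only Mcpt1, Mcpt2 and Gzmb reached the 1 FPKM used to call a row expressed.

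**Figure D3:**
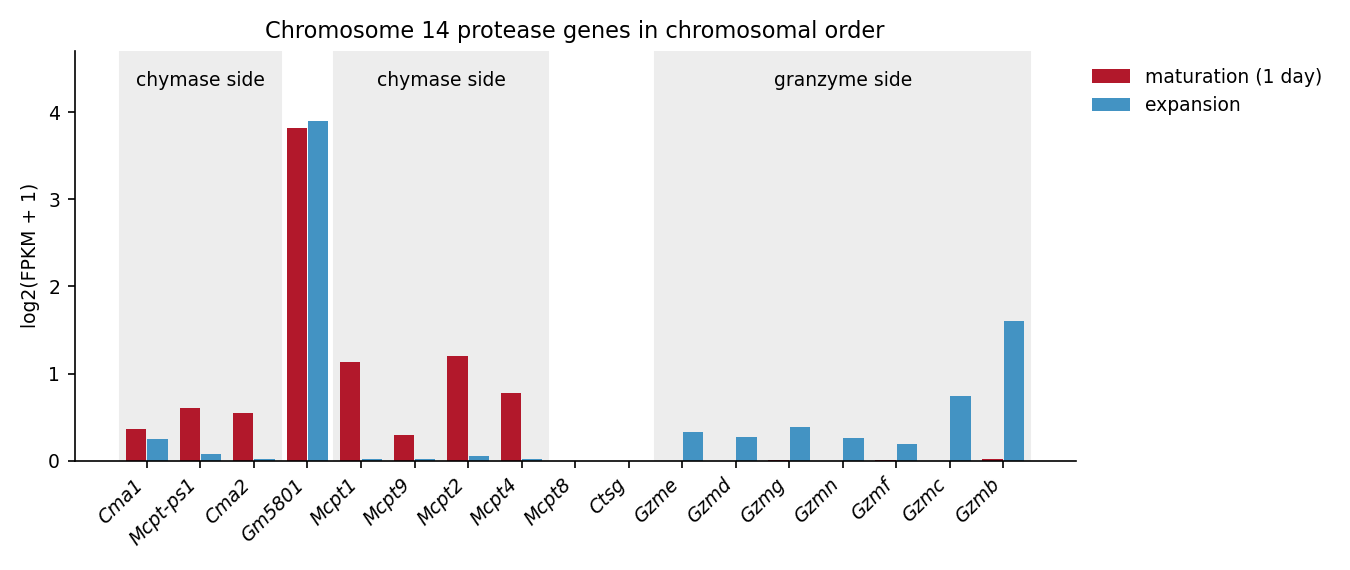
The 17 rows from Cma1 to Gzmb in their order on chromosome 14 as log2(FPKM + 1), with maturation left of expansion for each gene and 1 deposited value per bar. Bars of maturation are the taller ones on the chymase side and bars of expansion on the granzyme side, while Gm5801, which lies among the chymase genes, is at 13.1 FPKM in maturation and 13.9 FPKM in expansion.

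Ordered by level, the 9 genes ran in maturation from Srgn through Il1rl1, Mcpt2, Mcpt1, Fcer1a, Hdc, Ms4a2 and Fcer1g to Cpa3, and in expansion from Srgn through Il1rl1, Ms4a2, Hdc, Fcer1a, Cpa3, Fcer1g and Mcpt2 to Mcpt1. With 1 value per group, it cannot be said which neighbours in this order differ. The rows closest to each gene in both levels at once were found by the Euclidean distance over the 2 values of log2(FPKM + 1), small RNA rows left out. With only 2 values, likeness means a like level and ratio and nothing more. For Ms4a2 the closest was Cbfb, which encodes the common partner of RUNX factors, at 0.205 FPKM in maturation and 7.25 FPKM in expansion. For Fcer1a they were Rab44, a RAB-type GTPase, at 0.633 FPKM in maturation and 4.10 FPKM in expansion, and Chst15. For Hdc it was Trnp1 at 0.0825 FPKM in maturation and 4.51 FPKM in expansion. For Il1rl1 they were Cotl1, an actin-binding protein, at 1.60 FPKM in maturation and 8.65 FPKM in expansion, and Cxcr4, the receptor for the chemokine CXCL12, at 1.94 FPKM in maturation and 8.89 FPKM in expansion. For Srgn they were Bex4, at 31.1 FPKM in maturation and 145 FPKM in expansion, and Arhgdib, at 33.4 FPKM in maturation and 114 FPKM in expansion. For Mcpt1 it was Rab3il1, at 1.13 FPKM in maturation and 0.0200 FPKM in expansion, and for Mcpt2 it was Mcpt1.

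Genes that act with the 9 were read from 13 lists, which were written with earlier results of these data known. Of 146 genes on them with a row, 52 reached 1 FPKM, and 23 were at least 2-fold lower and 2 at least 2-fold higher. The 52 had a median log2 ratio of -0.70. The background share of rows at least 2-fold lower was 6.70% and of rows at least 2-fold higher 3.13%, beside 44.2% and 3.85% of the 52. Because the lists were written with such results known, nothing is read from the difference in shares. Some of the 52, such as Lcp2 and Pik3cd, also reached 1 FPKM only in expansion, where they were high. Of 16 signalling genes below the IgE receptor, 11 reached 1 FPKM, and of these 7 stood at least 2-fold lower and none higher by that much, the median being -1.05. After centring, 5 stayed at least 2-fold lower. The other 5 of the 16 genes were under 1 FPKM in both groups, among them Fyn, a kinase of the same family as Lyn, at 0.0139 FPKM in maturation and 0.00527 FPKM in expansion. The 7 included the kinase gene Lyn, which phosphorylates the receptor, at 1.03 FPKM in maturation and 7.82 FPKM in expansion. Lcp2, the adaptor SLP-76, was at 0.773 FPKM in maturation and 5.37 FPKM in expansion, and Gab2, an adaptor below FYN, at 1.21 FPKM in maturation and 6.80 FPKM in expansion. Grb2, a general adaptor of receptor signalling, was at 5.61 FPKM in maturation and 22.8 FPKM in expansion. Pik3cd, the delta subunit of PI3-kinase, was at 0.634 FPKM in maturation and 5.73 FPKM in expansion. Syk, the kinase recruited to the gamma chain, was within 2-fold under its older symbol Sykb, at 1.84 FPKM in maturation and 2.51 FPKM in expansion. Lat, the membrane scaffold of this pathway, was at 0.0666 FPKM in maturation and 0.116 FPKM in expansion.

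All 3 genes of lipid mediator synthesis that reached 1 FPKM, of 9 listed, stood at least 2-fold lower (median ratio -1.14). With ratios centred in this way, Alox5ap stayed past 2-fold (-2.08), while Alox5 (-0.89) and Pla2g4a (-0.88), the phospholipase that frees arachidonic acid, did not. Alox5ap, which presents arachidonic acid to 5-lipoxygenase, was at 7.50 FPKM in maturation and 41.8 FPKM in expansion, and Alox5, the 5-lipoxygenase gene, at 18.0 FPKM in maturation and 40.7 FPKM in expansion. Ltc4s, the enzyme that makes leukotriene C4, was at 0.0878 FPKM in maturation and 0.468 FPKM in expansion, and Hpgds, the mast cell prostaglandin D synthase, at 0.0276 FPKM in maturation and 0.0183 FPKM in expansion. Alox5ap and Alox5 thus reached 1 FPKM in both groups and Ltc4s in neither. Not every enzyme of the leukotriene pathway was listed.

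Of 8 cytokine receptor genes of mast cells, 5 reached 1 FPKM, 3 stood at least 2-fold lower and none higher by that much, the median being -2.14. Kit, which encodes the stem cell factor receptor, was at 1.40 FPKM in maturation and 16.8 FPKM in expansion. Csf2rb and Csf2rb2, the beta chains of the IL-3 and GM-CSF receptors, are near copies that can share fragments, at 0.772 and 0.745 FPKM in maturation and 7.12 and 6.68 FPKM in expansion. Il3ra, the IL-3 binding chain, was at 0.00702 FPKM in maturation and 0.0880 FPKM in expansion. Il9r, the receptor for the mast cell growth factor IL-9, was at 9.27 FPKM in maturation and 8.30 FPKM in expansion.

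Among 15 transcription factors that act in mast cells, 13 reached 1 FPKM, 5 were at least 2-fold lower and 2 higher by that much. Their median ratio was -0.42. With ratios centred on the median of all expressed rows, 3 were lower and 4 higher, and with the groups rescaled without small RNA rows, 5 lower and 4 higher, so the balance of this list depends on the scaling. Gata2 was at 0.824 FPKM in maturation and 7.20 FPKM in expansion, a log2 ratio of -2.17. Gata1, the erythroid GATA factor, which mast cells also use, was at 37.4 FPKM in maturation and 18.8 FPKM in expansion, a ratio of 0.96, or 1.20 once centred. Sfpi1, the older symbol of the PU.1 gene Spi1, was at 4.49 FPKM in maturation and 12.0 FPKM in expansion, and Tal1, a partner of GATA1, at 21.1 FPKM in maturation and 7.67 FPKM in expansion. Myb, a factor of dividing blood progenitors, was at 1.17 FPKM in maturation and 13.2 FPKM in expansion, the lowest ratio of this list (-2.71). Mitf, the factor that mast cells depend on, was at 0.106 FPKM in maturation and 0.225 FPKM in expansion. Gata2 thus stood with the lower genes of the 9 and Gata1 did not.

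**Figure D4:**
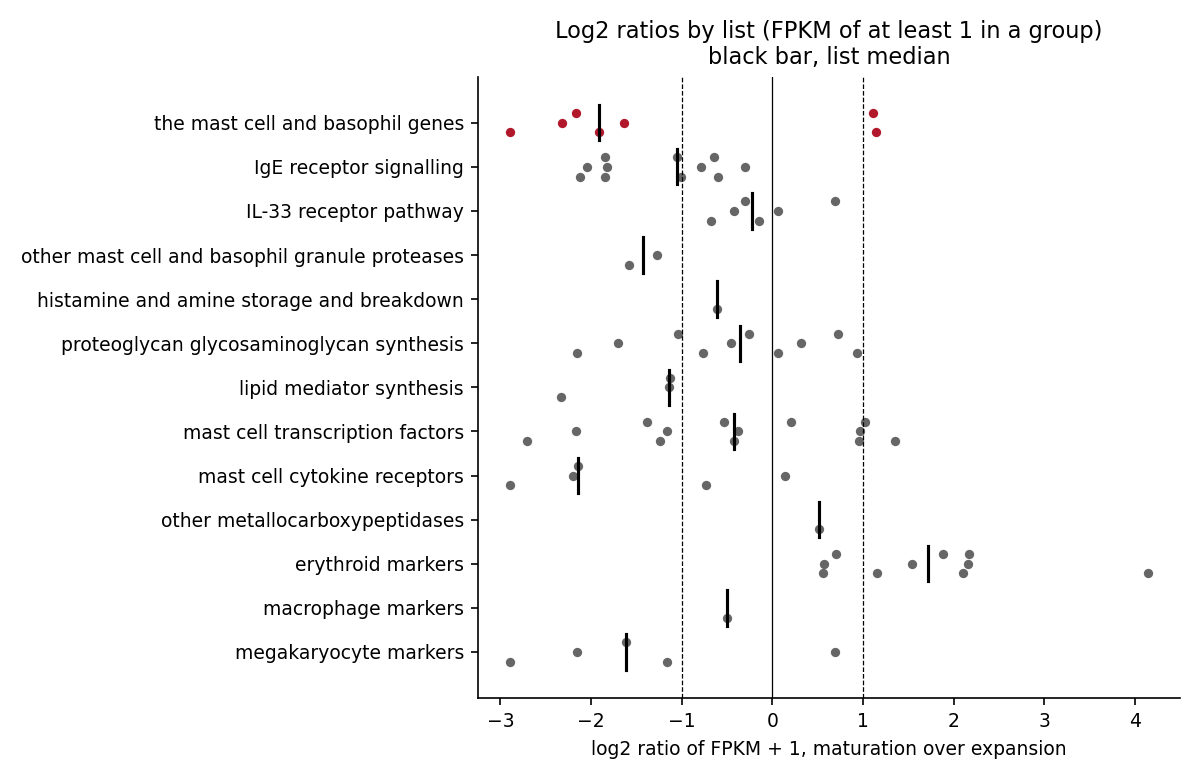
Log2 ratios of maturation over expansion for genes of at least 1 FPKM in a group, with 1 point per gene, the 7 of the 9 genes that reached it in red at the top, each further list on its own line and a black bar at the list median. Dashed lines mark ratios of -1 and 1. The IgE receptor signalling points lie below 0 and the erythroid marker points above 0, while IL-33 pathway points lie between the dashed lines.

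Of 10 erythroid markers, all above 1 FPKM in at least 1 group, 7 were at least 2-fold higher in maturation and none lower, with a median of 1.71. Over all expressed rows 3.13% were at least 2-fold higher. Slc4a1 and Alas2 reached 1 FPKM in maturation only, where they were high. This list too was chosen with earlier results known, so nothing is read from the difference in shares. Klf1, an erythroid transcription factor, was at 42.7 FPKM in maturation and 18.7 FPKM in expansion. Other defining genes of mast cells and basophils were mostly under 1 FPKM. Of 11 further granule protease genes with a row, 9 were under 1 FPKM in both groups, and the 2 above it, Gzmb and the cathepsin C gene Ctsc, were lower in maturation. Ctsc, which activates granule proteases, was at 1.53 FPKM in maturation and 5.08 FPKM in expansion. The mast cell tryptase Tpsb2 was at 0.0101 FPKM in maturation and 0.0138 FPKM in expansion. All 10 further surface genes were under 1 FPKM in both groups, and their summed level was 0.108 FPKM in maturation and 0.505 FPKM in expansion, with the mast cell receptor gene Mrgprb2 listed at 0 in both. All 15 other MS4A genes were under 1 FPKM, of which 5 were listed at 0 in both groups, and so were all 9 other Fc receptor genes, with 1 listed at 0 in both.

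Markers of other cell types were read beside these values. Of 9 megakaryocyte markers, 5 reached 1 FPKM and 4 were at least 2-fold lower, beside 6.70% of all expressed rows. These 4 (Gp5, Gp1ba, Itga2b and Itgb3) reached 1 FPKM in expansion only, where they were high, so nothing is read from the count. The 9 markers had a summed level of 4.22 FPKM in maturation and 24.1 FPKM in expansion. Gp5, a platelet surface glycoprotein, was at 0.438 FPKM in maturation and 9.63 FPKM in expansion, whereas Gp9, another platelet glycoprotein, stood the other way at 1.84 FPKM in maturation and 0.756 FPKM in expansion. Pf4, platelet factor 4, was listed at 0 in maturation and at 0.0333 FPKM in expansion. Macrophage markers summed to 0.614 FPKM in maturation and 1.37 FPKM in expansion over 10 genes, nearly all of it Cd68. Granulocyte markers summed to 0.551 FPKM in maturation and 0.424 FPKM in expansion over 10 genes, with S100a8 listed at 0 in both. Eosinophil markers summed to 0.0578 FPKM in maturation and 0.173 FPKM in expansion over 5 genes. Lymphocyte markers summed to 0.107 FPKM in maturation and 0.0895 FPKM in expansion over 8 genes, with 1 listed at 0 in both. Whether cells of another type in the culture had a part in the values of the 9 genes was not tested.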

How the data were processed

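RNA of mouse ESREs in expansion and after 1 day of maturation was sequenced. RNA was extracted with a Qiagen kit and libraries were made with a Bioo Scientific kit, per the labels' protocols. The deposited values are FPKM made by the authors, with 1 column for each group, per the file headers. The submitters' processing notes name Cuffdiff 2.0.2 and mm9. No source used here gives the aligner, the annotation or how duplicates were combined, and the sequencing depth is unknown. FPKM depends on the length modelled for a transcript, and fragments that fit several genes are divided by software.

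Log2 ratios of maturation over expansion were computed with a pseudocount of 1, which understates differences of weakly expressed genes. Rows with FPKM of at least 1 in a group counted as expressed, and a ratio of 1 or more, or of -1 or less, as at least 2-fold. The computation of the ratio and its thresholds was tested on simulated data. The spread between replicates is unknown here, so that test does not show how far a call can be trusted, least of all at low FPKM. Starts in the table count from 0, since the span of 190 of 190 microRNA rows equalled the RefSeq length, and are printed counted from 1 on mm9. Of 208 genes on all lists, the 9 included, 201 were found by symbol and 6 through RefSeq synonyms, and 1 (Tpsab1) was not analysed here. A few named items are not reported here. Promoters came from RefSeq (GRCm38.p6) and transcripts from GENCODE M21. Python 3.11.15, pandas 2.3.3 and Biopython 1.88 were used.

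The 9 genes and the lists were chosen with earlier results of these data known. Genes named besides the 9 were the expressed list members with the largest ratios, up to 5 per list, the highest member of each list, up to 3 rows nearest in level, expressed neighbours within 250 kb, and always Kit, Gata1, Gata2 and Klf1; not all of them are printed. Other genes, such as Egr1, Slc4a1, listed genes below 1 FPKM and the chromosome 14 granzymes were chosen after their values were seen.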

Additional observations from a re-analysis of the deposited data

How the results depend on the processing

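No paired analysis was possible because each group has 1 deposited value. Leaving out a replicate was not possible for the same reason. Of the 9 genes, 5 stayed at least 2-fold lower and 2 at least 2-fold higher with a pseudocount of 0.1, with ratios centred on the median of all expressed rows, when groups were rescaled to one summed FPKM without small RNA rows, and with no filter. A smaller pseudocount or no filter cannot remove a call made with a pseudocount of 1. The counts under those 2 settings are therefore no check of the calls. Centring and rescaling both raised the ratios of Mcpt1 and Mcpt2, so they could not remove the 2 higher calls and are no check of them. Both settings moved the ratios of the 5 lower genes towards 0, and these calls stayed. With a pseudocount of 5, 3 were lower (Ms4a2, Il1rl1 and Srgn) and 0 higher, and with a minimum of 5 FPKM 3 were lower and 0 higher. These settings give low values less weight or leave them out. The log2 ratio of Srgn ran from -2.21 to -1.92, that of Ms4a2 from -5.24 to -1.25, that of Hdc from -4.55 to -0.89, and that of Mcpt1 from 0.31 to 3.51. The ratio of Fcer1g became 0.22 and that of Cpa3 0.10 after centring.

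Over the 13 lists, genes at least 2-fold lower numbered 23 and became 9 with a pseudocount of 5. Genes at least 2-fold higher numbered 2 and became 4 with a pseudocount of 0.1, 1 with a pseudocount of 5, 5 after centring and 5 after rescaling. Over all expressed rows, 290 were higher and 621 lower, against 420 and 363 after centring and 335 and 508 after rescaling. Of the 110 neighbouring rows 3 were at least 2-fold lower and 0 higher; these became 8 and 1 with a pseudocount of 0.1, 0 lower with a pseudocount of 5, and 2 higher after centring. Mcpt1, Mcpt4 and Cma2 in expansion lie at about 2 to 3 times the smallest product of FPKM and length among the olfactory receptor rows, which limits their ratios.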

Other observations

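Within 250 kb of the 9 genes on mm9 lay 110 other rows, of which 35 reached 1 FPKM. Of these 35, 3 were at least 2-fold lower in maturation and none at least 2-fold higher, beside 6.70% and 3.13% of all expressed rows. For the 110 rows of any level the like background shares are those over all rows, 2.41% and 1.12%. With a pseudocount of 0.1 the counts were 8 lower and 1 higher. The 3 were Gzmb, Arhgap30, at 1.10 FPKM in maturation and 5.74 FPKM in expansion, and 2510003E04Rik at 2.08 FPKM in maturation and 5.24 FPKM in expansion. Fcer1g, at 0.0801 FPKM in maturation and 0.104 FPKM in expansion, lay 42.6 kb from Ppox, an enzyme of heme synthesis, at 17.0 FPKM in maturation and 9.23 FPKM in expansion. None of the 6 rows around Il1rl1 reached 1 FPKM. Around Fcer1a the 1 row that did was Darc, the Duffy blood group gene, at 2.15 FPKM in maturation and 0.781 FPKM in expansion, a log2 ratio of 0.82. Around Ms4a2, Stx3, a syntaxin of granule fusion, was at 0.364 FPKM in maturation and 1.59 FPKM in expansion, a ratio of -0.93.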
